A study of Homo sapiens with 6 samples.

Results

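The C/EBP genes were examined in the acute promyelocytic leukemia cell line NB4 after CRISPR targeting of ARID1A, a component of SWI/SNF, which moves nucleosomes. Members were taken by name: CEBPA, CEBPB, CEBPD, CEBPE, CEBPG and CEBPZ, which are 6 of the 52992 genes to which the deposited transcripts could be assigned. The naming rule used no measured value, although the family was picked with earlier results of these data known, and all 6 members passed the low-count filter that left 18514 genes for testing. Every sample came from NB4 cells that carried Cas9 and a sgRNA under doxycycline control, and every sample received 1 µg/ml doxycycline for 7 days. The sgRNA was directed against lacZ of Escherichia coli in the control cells, whose genotype label is WT, or against ARID1A at a pair of different targets in the groups called sg1 and sg5. Each of the 3 groups had 2 replicates, and sg1 and sg5 together made 4 ARID1A-deficient samples. The cells were sorted populations that carried both vectors and not clones, so a sample can hold a mixture of edited alleles, and according to the methods of the study the cells were then kept without doxycycline before RNA was taken. Nothing states that the replicates were separate transductions or cultures, so the p-values measure only the spread between these samples, which may be technical.

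C/EBP proteins are transcription factors that bind enhancer and promoter sequences as dimers, held together by a leucine zipper next to a basic DNA-binding region (bZIP). CEBPA is required for the step from common myeloid to granulocyte-monocyte progenitors, CEBPE acts later in granulocyte and eosinophil maturation and is induced by retinoic acid in promyelocytic leukemia cells, and CEBPB carries granulopoiesis under stress and drives inflammatory genes together with CEBPD. CEBPG lacks a transactivation domain and acts through its dimers, among them those with ATF4 on amino acid and redox genes. CEBPZ shares the name only: its product is no bZIP protein, and its yeast relative, Noc1, works in the assembly of the large ribosomal subunit. It was kept in the list as a named member and is described apart.

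On GRCh38 with GENCODE 29, CEBPA lies on chromosome 19 at 33299934-33302564 (minus strand), CEBPB on chromosome 20 at 50190734-50192689 (plus strand) and CEBPE on chromosome 14 at 23117304-23119616 (minus strand). CEBPG lies on chromosome 19 at 33373330-33382686 (plus strand), and CEBPZ on chromosome 2 at 37201612-37231713 (minus strand). CEBPA, CEBPB and CEBPD are single-exon genes with 1 transcript each, CEBPE has 2 exons, CEBPG is represented by 2 transcripts and CEBPZ by 3, the longest with 16 exons.

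Stretches of RefSeq promoter sequence (GRCh38.p14, 5′ to 3′ on the gene's strand) are shown for 3 members, each limited to bases outside the annotated exons of its gene. CEBPB is shown as the member with the largest difference between groups, CEBPA because its upstream bases also precede a divergent transcript, and CEBPG because the stretch lies between the first exons of its 2 transcripts, whose shares varied among samples. Capitals mark searched letters.
CEBPB chr20:50190580-50190733 (+ strand): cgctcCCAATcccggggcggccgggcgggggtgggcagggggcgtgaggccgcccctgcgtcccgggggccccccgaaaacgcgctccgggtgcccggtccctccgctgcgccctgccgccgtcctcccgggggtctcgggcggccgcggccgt
CEBPA chr19:33302565-33302784 (- strand): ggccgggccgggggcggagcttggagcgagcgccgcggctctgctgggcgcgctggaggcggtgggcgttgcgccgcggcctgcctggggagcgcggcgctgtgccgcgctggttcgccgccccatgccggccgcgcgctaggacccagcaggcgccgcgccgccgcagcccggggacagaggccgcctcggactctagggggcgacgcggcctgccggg
CEBPG chr19:33373896-33374112 (+ strand): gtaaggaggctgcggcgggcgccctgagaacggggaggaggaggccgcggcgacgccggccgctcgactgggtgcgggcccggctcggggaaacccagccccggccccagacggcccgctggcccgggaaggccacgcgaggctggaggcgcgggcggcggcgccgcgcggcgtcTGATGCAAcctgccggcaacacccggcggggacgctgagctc
The letters searched on both strands in the 250 bases before each start were TTGCNNAA (a C/EBP palindrome), CCAAT (the box of that name), the E-box CACGTG, TGATGNAA (the core of an amino acid response element, a composite C/EBP and ATF sequence) and GAGGAAGT (PU.1). They occurred in 9.1%, 32.0%, 6.3%, 3.1% and 2.2% of 35116 promoters, respectively. In the CEBPB stretch, 1 CCAAT was present. The CEBPG stretch held 1 TGATGNAA, from 42 to 35 bases before a RefSeq start, and the window of its other start, not printed, held 2 CCAAT on the opposite strand. The CEBPA stretch held none of these letters, and neither did the windows of CEBPE and CEBPZ.

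Total estimated counts were between 46131178 and 54843745 per sample, and members were counted between 1185 (CEBPB) and 11380 (CEBPA) times in a sample. The first principal component of log2 CPM (library-scaled counts), with 34.4% of the variance, set replicate 1 of sg1 and replicate 2 of sg5 (scores of 34.3 and 46.8) apart from the other 4 samples (-30.3 to -11.3). ARID1A transcript was at 29.6 and 35.1 TPM (length-scaled abundance) in LacZ, 38.0 and 36.4 under sg1 and 24.3 and 26.9 under sg5. It was thus not lower in the samples labelled sg1 than in LacZ, and lower in both samples labelled sg5, with log2 fold changes of 0.22 ± 0.14 and -0.36 ± 0.14 (SE), neither of which passed the test (adjusted p = 0.993 and 0.661). Cas9 edits can leave the transcript in place, and protein was not analysed here, so the transcript does not check the labels. The study itself reports an immunoblot with loss of ARID1A protein in NB4 cells given ARID1A sgRNA and 7 days of doxycycline. Of 6 promyelocyte markers, 5 averaged over 1 TPM, led by MPO, whereas ELANE stayed between 0.0353 and 0.290 TPM. Their summed level was 8139 to 9023 TPM in LacZ and 6816 to 8059 TPM in ARID1A-deficient samples. Most of it was MPO, at 6913 to 7769 and 5991 to 6813 TPM. PRTN3 overlapped LacZ, at 684 to 731 and 429 to 852 TPM, and the other markers were lower in TPM. Of all genes, 10.4% lay below and 9.72% above both LacZ samples in all 4 ARID1A-deficient samples in normalized CPM. The 4 T cell markers summed to 12.4 to 13.8 TPM in LacZ and 15.0 to 19.5 TPM in ARID1A-deficient samples, nearly all from CD3D, with CD3E at most at 0.0410 TPM. The 3 B cell markers summed to 7.47 to 10.5 and 13.2 to 16.6 TPM, led by CD79A, with MS4A1 at most at 0.130 TPM. Of 3 erythroid markers, HBB and HBA1 were at 0 throughout, and 3 collagen genes of stroma summed to at most 0.469 TPM. The part of these marker differences in the results on the family was not tested. In bulk RNA, fewer cells that express a gene and less RNA per cell cannot be told apart.

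All 6 genes were expressed at substantial levels in NB4 cells. CEBPA had the highest TPM of the family in each of the 6 samples, with a mean of 93.1 TPM that exceeded that of 91.8% of the tested genes. CEBPG had the lowest TPM in 5 samples and CEBPB in the remaining one, replicate 2 of sg5. In LacZ, the means were 107.7 ± 8.43 TPM for CEBPA, 65.6 ± 2.10 for CEBPE, 63.1 ± 7.67 for CEBPD, 60.8 ± 8.53 for CEBPB, 38.7 ± 0.566 for CEBPZ and 28.1 ± 0.686 for CEBPG (SD, n = 2). CEBPE, CEBPD and CEBPB did not separate from each other beyond their spread, and their order changed between the LacZ replicates, whereas the gaps above and below this trio were wider than the replicate ranges. In sg5 the means were 77.3 ± 19.4 for CEBPA, 54.0 ± 7.77 for CEBPE, 47.1 ± 10.8 for CEBPD, 41.7 ± 3.45 for CEBPZ, 29.1 ± 17.3 for CEBPB and 23.3 ± 5.69 for CEBPG, and only CEBPA lay above all values of the next gene in that order. CEBPB made up 15.7% and 17.6% of the summed TPM of the 6 genes in LacZ, 10.7% and 14.6% under sg1 and 13.7% and 6.94% under sg5.

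**Figure D1:**
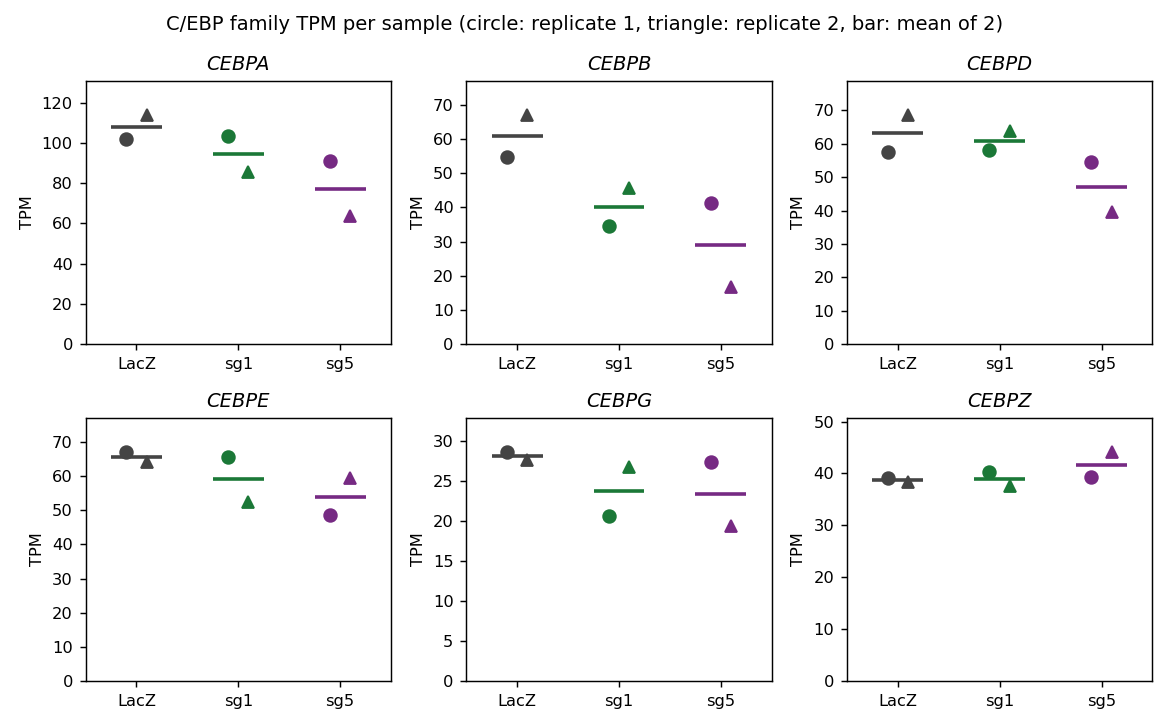
TPM (y axis, from 0) of the 6 C/EBP genes in LacZ, sg1 and sg5; circles are replicate 1, triangles replicate 2 and bars the mean of 2. CEBPB and CEBPG are lower in all 4 ARID1A-deficient samples than in both LacZ samples, a pattern met in normalized CPM by 10.4% of all genes. CEBPB reaches 16.8 TPM in replicate 2 of sg5.

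To ask whether ARID1A deficiency was accompanied by altered expression of the family, sg1, sg5, their mean (ARID1A-deficient) and each other were compared in one edgeR model. No member passed an FDR of 0.1 in any of these 4 contrasts. Over all 18514 genes, 0.0378% were called in sg1 against LacZ, 0.0972% in sg5 against LacZ, 0.167% in ARID1A-deficient against LacZ and 0.0054% in sg1 against sg5. DESeq2 and limma on log2(TPM + 1) also called 0 members in each contrast. In the same order of contrasts, DESeq2 called 0.742%, 1.35%, 1.81% and 0.027% of genes, and limma 0.0162%, 0.0216%, 0.0216% and 0%. Without the low-count filter, edgeR called 1 member in sg1 (CEBPB), 2 in sg5 (CEBPA and CEBPB) and 1 in ARID1A-deficient cells (CEBPB), against 1.05%, 1.92% and 2.13% of all genes. Without replicate 1 of sg1 and replicate 2 of sg5, which leaves 1 sample for each sgRNA and was tried after seeing the data, it called 1 (CEBPB), 2 (CEBPB and CEBPE) and 3 (CEBPA, CEBPB and CEBPE), against 2.2%, 4.09% and 4.2% of all genes. All members called in these fits were lower than in LacZ. With an unadjusted p below 0.05 in edgeR, 0 members stood out in sg1 (4.15% of all genes) and 0 in ARID1A-deficient cells (7.21%). In sg5, 3 members did so, CEBPA, CEBPB and CEBPD, all lower (7.47% of all genes in either direction and 4.52% lower), and between sg1 and sg5 1 member did, CEBPD (1.38%). The estimates pointed the same way under both sgRNAs: 5 members had negative and 1, CEBPZ, positive log2 fold changes in sg1 and in sg5. The members' median was -0.13 in sg1 and -0.31 in sg5, where the median of all genes was 0.0022 and -0.010. The sg1 and sg5 contrasts share the LacZ samples, and the members share all libraries, so these signs are not independent of each other.

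Without any test, normalized CPM of 5 members, all but CEBPZ, was lower in both sg5 samples than in both LacZ samples, a pattern met by 21.9% of all genes. In sg1 this held for 2 members, CEBPB and CEBPG, and for 17.4% of all genes. Both genes were also the only members below both LacZ samples in all 4 ARID1A-deficient samples (10.4% of all genes). CEBPZ was above both LacZ samples in all 4 on this scale (9.72% of all genes), but not in TPM.

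**Figure D2:**
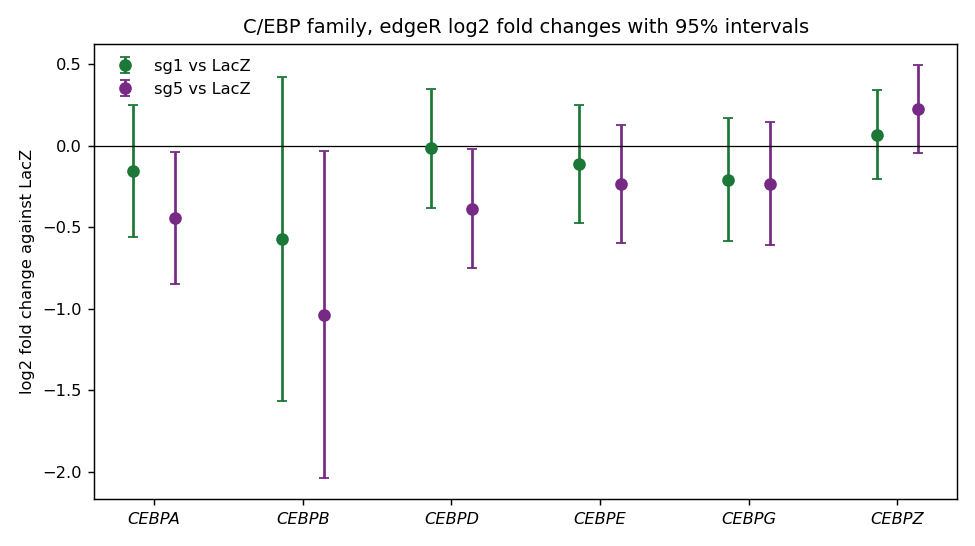
log2 fold change (y axis) of each C/EBP gene in sg1 and sg5 against LacZ, with points for the edgeR estimate and bars for its 95% interval. The interval of CEBPB in sg5 runs from -2.04 to -0.03, by far the widest pair of bars in the plot belongs to CEBPB, and no gene passes an FDR of 0.1.

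CEBPA, the myeloid lineage factor, was at 101.8 and 113.7 TPM in LacZ, 103.4 and 85.4 under sg1 and 91.0 and 63.6 under sg5. The sg1 samples overlapped LacZ, and both sg5 samples lay below it. Log2 fold changes were -0.16 ± 0.18 in sg1 (SE; 95% interval -0.56 to 0.25; adjusted p = 0.993) and -0.44 ± 0.18 in sg5 (-0.85 to -0.04; adjusted p = 0.661). The difference between sg1 and sg5 was 0.29 ± 0.18 (adjusted p = 1). With 1 sg5 library left out, the sg5 value of CEBPA was -0.68 without replicate 1 and -0.24 without replicate 2, and with 1 sg1 library left out the sg1 value was -0.33 without replicate 1 and 0.00070 without replicate 2.

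CEBPE, the late granulocyte and eosinophil factor, was at 67.1 and 64.1 TPM in LacZ, 65.6 and 52.5 under sg1 and 48.5 and 59.5 under sg5. In TPM, replicate 1 of sg1 lay between the LacZ samples, and the lowest value was that of replicate 1 of sg5. In normalized CPM, replicate 1 of sg1 was above both LacZ samples, at 75.1 against 73.2 and 71.3. Its log2 fold changes were -0.11 ± 0.16 in sg1 and -0.23 ± 0.16 in sg5, with 95% intervals of -0.47 to 0.25 and -0.59 to 0.12 (adjusted p = 0.993 and 0.729). The sg5 value of CEBPE was -0.054 without replicate 1 of sg5 and -0.43 without replicate 2, and the sg1 value was -0.31 without replicate 1 of sg1 and 0.065 without replicate 2.

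CEBPB, the stress and inflammatory factor, was at 54.8 and 66.9 TPM in LacZ, 34.7 and 45.5 under sg1 and 41.3 and 16.8 under sg5. The 4 ARID1A-deficient samples lay below the LacZ samples, a pattern met in normalized CPM by 10.4% of all genes. Under each sgRNA the lower value came from the sample set apart on the first principal component, replicate 1 of sg1 and replicate 2 of sg5. The pair of sg5 samples were the least alike, with replicate 2 minus replicate 1 at -1.24 on the log2 CPM scale. This gap was wider than in any other replicate pair of any member. Log2 fold changes were -0.57 ± 0.40 in sg1 (95% interval -1.56 to 0.42; adjusted p = 0.993), -1.04 ± 0.40 in sg5 (-2.04 to -0.03; adjusted p = 0.663) and -0.80 ± 0.34 in ARID1A-deficient cells (-1.64 to 0.03; adjusted p = 0.708), the last a level 0.573 times that of LacZ. The biological coefficient of variation of CEBPB was 27.8%, against 10.1% to 13.6% for the other members. Without replicate 1 of sg5, CEBPB was called in sg5 at -1.77 (adjusted p = 0.0116; 0.395% of all genes called) and in ARID1A-deficient cells at -1.17 (adjusted p = 0.00848; 0.978% of all genes). The sg5 group is then a single library, replicate 2, which stood apart on the first principal component and is assumed to vary like the other groups. Without replicate 2 of sg5, the sg5 value was -0.55 and was not called. Among the alternatives with 2 replicates in each group compared, adjusted p ranged from 1.36e-09 to 0.863 in sg5. The lowest came without the low-count filter, at an unchanged -1.04 but with an SE of 0.15 in place of 0.40.

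CEBPD, the acute phase factor, lies on chromosome 8 at 47736909-47739086 (minus strand). It was at 57.7 and 68.5 TPM in LacZ, 58.0 and 63.9 under sg1 and 54.7 and 39.5 under sg5. The sg1 samples lay within the LacZ range and the sg5 samples below it. Log2 fold changes were -0.02 ± 0.16 in sg1 and -0.39 ± 0.16 in sg5 (adjusted p = 0.996 and 0.663), and sg1 exceeded sg5 by 0.37 ± 0.16 (95% interval 0.01 to 0.74; adjusted p = 1). The sg5 value of CEBPD was -0.59 without replicate 1 of sg5 and -0.20 without replicate 2.

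CEBPG, the partner without an activation domain, was at 28.6 and 27.6 TPM in LacZ, 20.6 and 26.7 under sg1 and 27.4 and 19.3 under sg5. Both groups of ARID1A-deficient cells held 1 sample close to LacZ and 1 clearly lower, and the lower ones, replicate 1 of sg1 and replicate 2 of sg5, were the samples set apart on the first principal component. Log2 fold changes were -0.21 ± 0.17 and -0.23 ± 0.17 (adjusted p = 0.993 and 0.744). Single libraries moved both values of CEBPG: sg1 was at -0.064 without its replicate 1 and -0.37 without its replicate 2, and sg5 at -0.45 without its replicate 1 and -0.035 without its replicate 2. The transcript CEBPG-202, whose first exon follows the printed CEBPG stretch, took 30.3% and 29.3% of the gene's counts in LacZ, 14.4% and 31.4% under sg1 and 32.5% and 25.6% under sg5. In TPM it was at 9.07 and 8.48 in LacZ, 3.16 and 8.79 under sg1 and 9.32 and 5.196 under sg5, whereas CEBPG-201 varied only between 14.1 and 19.5 TPM. The lowest shares again came from the same pair of samples. Reads common to both transcripts were split by estimation, and these shares were not tested.

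CEBPZ, the ribosome assembly factor, was at 39.1 and 38.3 TPM in LacZ, 40.4 and 37.7 under sg1 and 39.3 and 44.1 under sg5. The sg1 samples lay on both sides of the LacZ values and the sg5 samples above them. Log2 fold changes were 0.07 ± 0.12 in sg1 and 0.23 ± 0.12 in sg5, with 95% intervals of -0.20 to 0.34 and -0.05 to 0.50 (adjusted p = 0.993 and 0.696). The sg5 value of CEBPZ was 0.16 with the length offset and 0.10 with limma. CEBPZ-201, the coding transcript with 16 exons, took 98.7% to 99.5% of the counts. The retained-intron transcript CEBPZ-203 was at 3.40 and 3.53 TPM in LacZ, 3.41 and 2.62 under sg1 and 1.35 and 1.53 under sg5, based on between 22.5 and 62.5 estimated counts. Reads common to several transcripts were split by estimation, and these values were not tested.

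**Figure D3:**
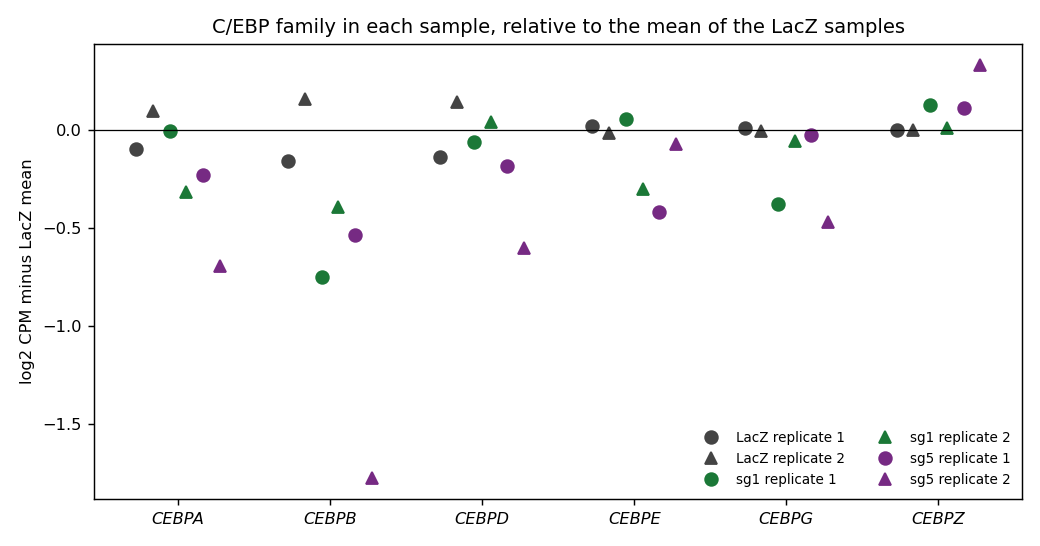
log2 CPM of each C/EBP gene in each sample minus the mean of the LacZ samples (y axis); colours are groups, circles replicate 1 and triangles replicate 2. Replicate 2 of sg5 is lowest for CEBPA, CEBPB, CEBPD and CEBPG and highest for CEBPZ, at -0.69, -1.78, -0.60, -0.47 and 0.33.

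Across the 6 samples, the members did not move as a single block. Pearson's r of log2 CPM was 0.91 between CEBPB and CEBPD, 0.88 between CEBPB and CEBPG, 0.85 between CEBPA and CEBPB and -0.97 between CEBPB and CEBPZ, while CEBPE had r between -0.36 and 0.31 with the others. These values describe 6 libraries, 1 of which, replicate 2 of sg5, was extreme for 5 members. Among the 13127 other genes that averaged 50 counts or more, the pair most like each member by r over the same samples was MAP2K2 (0.990) and DENND1B (0.987) for CEBPA, BBC3 (0.995) and TMCC3 (0.994) for CEBPB, SPSB2 (0.994) and ABHD16B (0.989) for CEBPD, GNA15 (0.993) and MBOAT7 (0.983) for CEBPE, TMEM42 (0.998) and WNT5B (0.998) for CEBPG, and C1orf112 (0.996) and EXOC5 (0.992) for CEBPZ. With 6 points such values are common: 530 genes exceeded an r of 0.9 with CEBPB, 899 with CEBPG and 66 with CEBPE. BBC3, which encodes the pro-apoptotic protein PUMA, was at 23.3 and 25.2 TPM in LacZ, 15.5 and 18.7 under sg1 and 19.4 and 8.70 under sg5.

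Neighbouring genes were examined because reads cannot be assigned to a strand unless the counting used it, which the sources used here do not state. CEBPA-DT, the divergent transcript that starts 293 bases beyond CEBPA on the plus strand, was given 177 and 218 reads by estimation in LacZ, 111 and 169 under sg1 and 145 and 142 under sg5. Its log2 fold changes were -0.36 ± 0.30 and -0.38 ± 0.30 (adjusted p = 0.993 and 0.761). Leaving out 1 library gave CEBPA-DT values from -0.80 to -0.02 in sg1, set by replicates 2 and 1 of sg1, and from -0.54 to -0.18 in sg5, set by replicates 1 and 2 of LacZ. A pair of antisense genes inside CEBPA, AC008738.3 and AC008738.5, had at most 15.3 counts. CEBPZOS, which overlaps CEBPZ by 14582 bases on the opposite strand, had log2 fold changes of -0.08 ± 0.16 and 0.01 ± 0.16 (adjusted p = 0.993 and 0.989), and reads from the shared bases may have been split between them. AC007390.2, which lies inside CEBPZ on the opposite strand, was given 148 to 237 reads by estimation, and was not called. CEBPB-AS1 overlaps CEBPB by 765 bases on the opposite strand and was not analysed here. Beside CEBPD, CEBPE, CEBPG and CEBPZ, the neighbours SPIDR, SLC7A8, PEPD and NDUFAF7 were not called either, and SLC7A8 was low, at 0.15 to 0.45 TPM.

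Of 26 granulocyte and eosinophil genes with known input from C/EBPα or C/EBPε, 20 could be tested, and the called ones were PRG2 and EPX, which encode eosinophil granule proteins. The list was chosen with earlier results of these data known, so these calls were not an open outcome. PRG2, which encodes major basic protein, was at 65.3 and 73.5 TPM in LacZ, 25.9 and 21.3 under sg1 and 23.7 and 21.6 under sg5. The groups were far apart, and PRG2 fell by 1.53 ± 0.15 on the log2 scale in sg1 (adjusted p = 0.0322) and by 1.58 ± 0.15 in sg5 (adjusted p = 0.0249). EPX, eosinophil peroxidase, was at 3.16 and 2.96 TPM in LacZ, 0.86 and 1.05 under sg1 and 0.80 and 0.62 under sg5. It fell by 2.06 ± 0.25 in sg5 (adjusted p = 0.0372) and missed the threshold in sg1 at -1.65 ± 0.24 (adjusted p = 0.143), and the difference between sg1 and sg5 was 0.42 ± 0.25 (adjusted p = 1). In ARID1A-deficient cells, PRG2 fell by 1.55 ± 0.12 (adjusted p = 0.00634) and EPX fell by 1.86 ± 0.20 (adjusted p = 0.0182). Several of these calls were lost when 1 LacZ library was left out, which leaves a single control sample. PRG2 in sg1 was then not called, at -1.62 without replicate 1 and -1.43 without replicate 2 of LacZ. PRG2 in sg5 was not called without replicate 2 of LacZ, at -1.47. EPX in sg5 was not called without replicate 1 or 2 of LacZ or replicate 2 of sg5, at -2.02, -2.09 and -1.92. For ARID1A-deficient cells, EPX was not called without either LacZ replicate, at -1.82 and -1.885. EPX in sg1 was called without replicate 1 or 2 of sg5, at -1.65 in each. These estimates stayed close to those with all samples. Thus 1 list gene was called lower in sg1 and 2 in sg5 with all samples, and 0 were called higher. Over all genes tested, 0.0378% and 0.0972% were called in either direction. The most abundant members of the list were MPO, the peroxidase of primary granules, with log2 fold changes of -0.08 ± 0.14 and -0.18 ± 0.14 (adjusted p = 0.993 and 0.750), and PRTN3, proteinase 3, with -0.06 ± 0.32 and -0.36 ± 0.32 (adjusted p = 0.993 and 0.786). DESeq2 called 2 genes higher and 3 lower in sg1, and 3 higher and 5 lower in sg5. Its calls in sg1 were LYZ and CHI3L1, higher, and MMP9, EPX and PRG2, lower, and in sg5 IL6R was added to the higher and GFI1 and AZU1 to the lower ones. Limma called PRG2 alone. RNASE2 and RNASE3, which also encode eosinophil granule proteins and were named after their values were seen, were not called: log2 fold changes in edgeR were 0.68 ± 0.21 and 0.67 ± 0.21 for RNASE2 (adjusted p = 0.869 and 0.550) and 0.09 ± 0.21 and -0.0062 ± 0.21 for RNASE3 (adjusted p = 0.993 and 0.996). DESeq2 called RNASE2 higher in ARID1A-deficient cells (adjusted p = 0.0472). Leaving out 1 library gave RNASE2 values from 0.37 to 0.93 in sg1, set by replicates 1 and 2 of sg1. With an unadjusted p below 0.05 in edgeR, 4 genes were higher under each sgRNA (LYZ, CHI3L1, IL6R and RNASE2), and 6 were lower in sg1 (MMP9, CSF3R, EPX, GFI1, AZU1 and PRG2) and 7 in sg5, where OLR1 was added. Among all genes tested, 4.15% had such a p in sg1 and 7.47% in sg5, shares that also apply to the lists that follow. Of the 20 genes, 12 had negative estimates under each sgRNA, with medians of -0.11 in sg1 and -0.27 in sg5.

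Of 19 inflammatory and acute phase genes with known input from C/EBPβ or C/EBPδ, 12 could be tested and 0 were called by edgeR, with 3 higher (IL1RN, S100A8 and S100A9) and 0 lower with an unadjusted p below 0.05 in sg1, and the same 3 higher and 1 lower (TNFAIP6) in sg5. Genes given by name alone beside such counts, here and for the lists that follow, were picked after their values were seen. The most abundant was S100A9, a calcium-binding protein of myeloid cells, at 26.9 and 26.2 TPM in LacZ, 120.6 and 57.1 under sg1 and 63.7 and 65.6 under sg5. All 4 ARID1A-deficient samples lay above both LacZ samples, a pattern met in normalized CPM by 9.72% of all genes. S100A9 had log2 fold changes of 1.80 ± 0.32 in sg1 (adjusted p = 0.302) and 1.35 ± 0.32 in sg5 (adjusted p = 0.417). The sg1 value of S100A9 was 1.14 without replicate 1 of sg1 and 2.26 without replicate 2. DESeq2 called 2 genes of the list, both higher under each sgRNA: S100A9 (adjusted p = 4.98e-06 in sg1 and 0.00312 in sg5) and its dimer partner S100A8 (adjusted p = 0.0341 and 0.0863). Limma called 0. SERPINA1, the next most abundant gene, had log2 fold changes of 0.31 ± 0.19 and 0.18 ± 0.19 (adjusted p = 0.993 and 0.816).

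Of 21 amino acid and redox genes of the ATF4 and C/EBPγ stress response, 20 could be tested and 0 were called by edgeR, DESeq2 or limma. With an unadjusted p below 0.05, edgeR had 0 genes in sg1 and 1 in sg5, GCLM, which was higher. Of the 20, 17 had negative estimates under each sgRNA, with medians of -0.28 in sg1 and -0.44 in sg5, against 0.0022 and -0.010 over all genes tested. The genes share all libraries, so these signs are not independent of each other, and the SE was as large as 1.21 for ASNS in sg1. SHMT2, the mitochondrial serine hydroxymethyltransferase, was at 517 and 561 TPM in LacZ, 342 and 527 under sg1 and 565 and 276 under sg5. SLC7A5, a large neutral amino acid transporter, was at 437 and 512 TPM in LacZ, 331 and 464 under sg1 and 418 and 268 under sg5. As with CEBPG, the low values of both genes were those of replicate 1 of sg1 and replicate 2 of sg5.

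Of 22 partners and regulators of C/EBP proteins or their mRNAs, all were tested and 0 were called by edgeR, with 0 with an unadjusted p below 0.05 in sg1 and 2, STAT5A and DDIT3, both lower, in sg5. The most abundant were CALR and PCBP2, which bind C/EBP mRNAs, with log2 fold changes of 0.10 ± 0.26 and 0.12 ± 0.26 for CALR (adjusted p = 0.993 and 0.917) and -0.04 ± 0.13 and 0.02 ± 0.13 for PCBP2 (adjusted p = 0.993 and 0.977). DESeq2 called 0 genes in sg1 and 1 in sg5, and limma called 0. That gene, DDIT3, was named after its values had been seen and encodes CHOP, the dominant-negative C/EBP homologue that is also known as C/EBPζ. It was at 51.6 and 49.97 TPM in LacZ, 26.7 and 33.0 under sg1 and 32.0 and 13.5 under sg5. All 4 ARID1A-deficient samples were below LacZ, a pattern met in normalized CPM by 10.4% of all genes. The lower value under each sgRNA was that of replicate 1 of sg1 and replicate 2 of sg5. DDIT3 had log2 fold changes in edgeR of -0.72 ± 0.33 in sg1 (adjusted p = 0.993) and -1.12 ± 0.34 in sg5 (adjusted p = 0.563), while the adjusted p of DESeq2 in sg5 was 0.0437. In edgeR the sg5 value of DDIT3 was -1.81 without replicate 1 of sg5 and -0.65 without replicate 2.

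Of 38 other bZIP genes, 36 could be tested and 0 were called by edgeR, with 1 higher (FOSL2) and 1 lower (BATF2) with an unadjusted p below 0.05 in sg1, and 0 higher and 5 lower (JUND, BATF2, JUNB, DDIT3 and JUN) in sg5. DESeq2 called DDIT3 alone, in sg5, and limma called 0. ATF4, the stress factor that pairs with C/EBPγ, was the most abundant and was at 727 and 655 TPM in LacZ, 612 and 691 under sg1 and 784 and 434 under sg5. Its log2 fold changes were -0.05 ± 0.22 and -0.15 ± 0.22 (adjusted p = 0.993 and 0.880). DBP, a circadian PAR bZIP factor, had 0.08 ± 0.11 and 0.02 ± 0.11 (adjusted p = 0.993 and 0.976).

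Of 24 large subunit pre-ribosome factors, listed as background for CEBPZ, 23 could be tested, and 0 were called by edgeR, DESeq2 or limma, with 0 with an unadjusted p below 0.05 under either sgRNA. Their medians were -0.02 in sg1 and 0.04 in sg5. Between sg1 and sg5, 0 genes of any of these lists were called, and some genes, among them DDIT3 and ATF4, stand in more than 1 list. NOP56 and PPAN, the most abundant, had log2 fold changes of 0.05 ± 0.14 and 0.16 ± 0.14 for NOP56 (adjusted p = 0.993 and 0.779) and -0.09 ± 0.15 and -0.13 ± 0.15 for PPAN (adjusted p = 0.993 and 0.835).

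**Figure D4:**
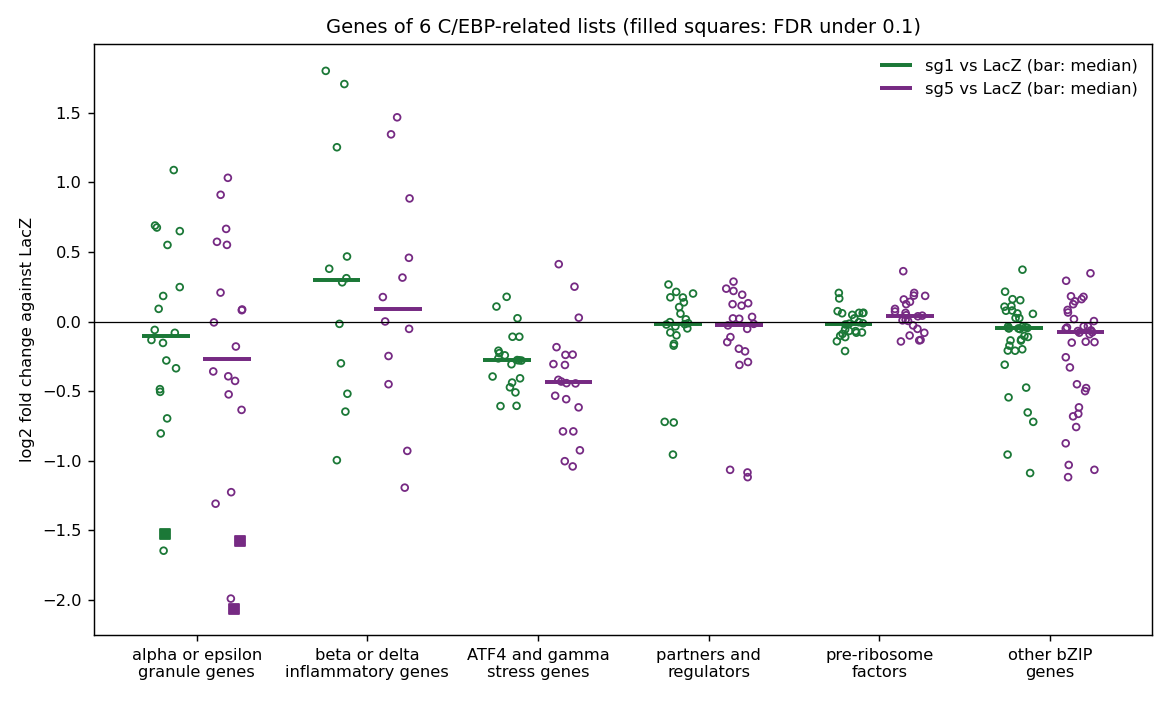
log2 fold change against LacZ (y axis) of the tested genes of 6 C/EBP-related lists in sg1 (green) and sg5 (purple); each symbol is a gene, filled squares are genes under an FDR of 0.1 in edgeR, and bars are list medians. The filled squares are PRG2 in both contrasts and EPX in sg5.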

How the data were processed

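RNA was sequenced from 6 NB4 samples. The authors ran kallisto on paired-end reads, and their processing notes also name DESeq2 and hg19. The human transcript set and the strand setting are not given in the sources used here. The deposited estimated counts need not be whole, and the deposited TPM are length-scaled by the authors. Deposited effective lengths were used for a length offset. Of 196354 transcripts, 181857 (92.6%) matched GENCODE 29 (GRCh38) by identifier and carried 95.4% to 95.5% of the counts. They were summed to 52992 genes, and counts were rounded.

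Genes were tested with edgeR 4.0.16 (R 4.3.3): TMM scaling, a filterByExpr minimum of 10 counts and a robust quasi-likelihood F-test, with all 6 samples in one model and group as the only term. P-values were adjusted by Benjamini-Hochberg over all 18514 genes and called under an FDR of 0.1, the threshold of the study. The ARID1A-deficient contrast averages the sg1 and sg5 coefficients. SEs derive from the F statistic. The scripts were tested on simulated data. DESeq2 1.42.0, limma 3.58.1 on log2(TPM + 1), other scalings, filters, a length offset, a replicate block, subsets of samples and each replicate left out were alternatives. The fit without both samples set apart on the first principal component and the crossed block were added after seeing the data. Python 3.11.15 was used for joins and plots.

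Named genes were the members, ARID1A, neighbours within 10000 bases, the most alike pair per member, and from each list the called genes and the 2 with the highest mean TPM. Further genes called by DESeq2 were named after their values were seen. The members and lists were chosen with earlier results of these data known. Promoters are from RefSeq, and that of CEBPD was not analysed here. All 6 members matched the gene annotation. Sequence on chromosome 8 is not shown here. The number of libraries limits the precision.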

Additional observations from a re-analysis of the deposited data

Results flagged for a closer look

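The spread within the 4 ARID1A-deficient samples was checked for 42 genes: the members, ARID1A, DDIT3, the tested neighbours, the genes most alike to each member, and the called and most abundant genes of each list. Of these, 2 had a sample that stood apart. S100A9 was highest in replicate 1 of sg1, with 120.6 TPM against 57.1 to 65.6 TPM in the other ARID1A-deficient samples, and the gap took 0.840 of the range of normalized CPM across these samples, above Dixon's 95% limit. AC007390.2, inside CEBPZ on the opposite strand, was lowest in replicate 1 of sg5, with 148 estimated counts against 164 to 188 in the other ARID1A-deficient samples, and the gap took 0.889 of the range of normalized CPM. Chance alone passes this limit in about 1 of 20 such groups. No member passed it.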

How the results depend on the processing

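Of 402 alternative values of the members' 24 log2 fold changes, 378 kept their direction and stayed uncalled, 12 kept their direction and were called, and 12 turned direction, from estimates between -0.16 and 0.47. Members called in sg1, sg5 and ARID1A-deficient cells, 0 in each, became 1 (CEBPB), 2 (CEBPA and CEBPB) and 1 (CEBPB) without the low-count filter. They also rose without replicate 1 of sg1 and replicate 2 of sg5, as given in the Results beside the shares of all genes. That choice was made after seeing the data and leaves 1 sample in each ARID1A group, assumed to vary like the LacZ pair. Leaving out 1 replicate at a time gave 0 to 1 in sg5 and in ARID1A-deficient cells, the 1 being CEBPB without replicate 1 of sg5 (0.395% and 0.978% of all genes called), and 0 in the other contrasts. List genes called were 1 in sg1, 2 in sg5, 2 in ARID1A-deficient cells and 0 between sg1 and sg5. In sg1 they were 7 with DESeq2, 17 without the filter, 2 with the compared groups only and 16 without both samples. In sg5 they were 11, 27, 5 and 21, and 1 with limma. In ARID1A-deficient cells they were 12 with DESeq2, 25 without the filter, 23 without both samples and 1 with limma. Between sg1 and sg5 they were 1 without the filter and 1 without both samples. Leaving out 1 replicate at a time gave 0 to 3, 0 to 8, 1 to 10 and 0 to 1. Calls over all genes moved in the same fits. Over all genes, sg1 had 7 calls as tested above, 116 with DESeq2, 345 without the filter and 18 with the compared groups only. For sg5 the totals were 18, 201, 632 and 29, with 4 by limma. ARID1A-deficient cells had 31 as tested above, 264 with DESeq2, 701 without the filter and 4 with limma. The total between sg1 and sg5 was 1, and 86 without the filter. The cause of these shifts was not tested.

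Over the same single omissions, the values that turned direction ranged from -0.33 to 0.00070 for CEBPA, -0.15 to 0.13 for CEBPD and -0.31 to 0.065 for CEBPE in sg1, and from -0.022 to 1.20 for CEBPB, -0.086 to 0.31 for CEBPE and -0.18 to 0.24 for CEBPG between sg1 and sg5. Without both samples, CEBPD in sg1 was 0.035, and CEBPA and CEBPG between sg1 and sg5 were -0.087 and -0.029.

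Of 712 alternative values of the other named genes, 615 kept direction and call, 34 were newly called, 18 lost the call (all PRG2 or EPX) and 45 turned direction. With single omissions, turned values ranged in sg1 from -0.17 to 0.012 for MPO, -0.59 to 0.33 for PRTN3, -0.23 to 0.38 for CALR, -0.13 to 0.055 for PCBP2, -0.020 to 0.12 for NOP56, -0.25 to 0.059 for PPAN and -0.12 to 0.016 for ATF4. In sg5 they ranged from -0.096 to 0.41 for SERPINA1, -0.86 to 0.088 for SHMT2, -0.27 to 0.45 for CALR, -0.082 to 0.12 for PCBP2, -0.015 to 0.33 for NOP56, -0.28 to 0.017 for PPAN and -0.57 to 0.18 for ATF4. Without both samples, CALR was -0.22, PCBP2 0.062 and ATF4 0.022 in sg1, and SHMT2 was 0.094, CALR -0.26, NOP56 -0.0080 and ATF4 0.19 in sg5. PCBP2 in sg5 was -0.022 without normalization factors and -0.027 with limma, and DBP was -0.026 without normalization factors. CEBPZOS ranged over single omissions from -0.17 to 0.016 in sg1 and from -0.22 to 0.22 in sg5. It was 0.015 in sg1 without both samples, and in sg5 -0.028 without normalization factors, -0.059 with limma, -0.0048 with the crossed block and -0.0008 with the length offset beside the uncrossed one. RNASE3 ranged over single omissions from -0.22 to 0.35 in sg1 and from -0.17 to 0.15 in sg5. It was -0.21 in sg1 without both samples, and in sg5 0.0045 with DESeq2, 0.0045 with RLE factors, 0.0039 with the block and 0.0011 with block plus length offset. EPX lost its call with limma at -1.25 in sg5 and -1.15 in ARID1A-deficient cells (adjusted p = 0.183 and 0.207).

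Deviations of same-numbered samples correlated at 0.072 (LacZ and sg1), 0.012 (LacZ and sg5) and -0.21 (sg1 and sg5). With 2 samples per group, these values cannot decide whether equal numbers mark samples that were handled together. With the replicate block, with or without the length offset, 0 members were called, and list genes called were 0 in sg1, 0 in sg5 and 1 in ARID1A-deficient cells. The block gave PRG2 an adjusted p of 0.242 in sg1 and 0.204 in sg5, and EPX 0.243 in sg5. With the sg5 numbers crossed, 0 members and 5, 8 and 10 list genes were called, against 59, 157 and 194 of all genes.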
